A study of Rattus norvegicus with 6 samples.

Results

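The genes described here encode the growth factors of the FGF, VEGF, PDGF and angiopoietin families and receptors of the FGF and PDGF families, measured in rat myocardium. They were taken by gene symbol, as genes of the table whose name begins with Fgf and a digit, Fgfr, Vegf, Pdgf or Angpt and a digit, together with Pgf and apart from a single gene that the rule leaves out. These were 43 of 32883 genes. They comprised 18 FGF ligands, 4 FGF homologous factors, 5 FGF receptors, 5 VEGF family ligands, 4 PDGF ligands, 2 genes of the PDGF receptor family, 3 angiopoietins and 2 genes, Fgfr1op and Fgfr1op2, which share only the name of a fusion with FGFR1 and encode no FGF receptor.

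Myocardial RNA was sequenced from 3 obesity-prone (OP) rats that had received a high-fat diet for 12 months and from 3 obesity-resistant (OR) rats that had received standard chow for 12 months. Both lines have a Sprague Dawley background and were bred for their response to a fattening diet, and each library came from a different animal. Line and diet changed together, so a difference between OP and OR rats cannot be assigned to one of them. The study asked how long-term metabolic syndrome acts on the heart, and the comparison of the groups shows here how the angiogenic and growth factor genes differed after the longest exposure.

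These families signal through receptor tyrosine kinases. VEGF ligands act mainly on endothelial cells through Flt1, Kdr and Flt4, and in the heart cardiomyocytes are a main source of Vegfa. Angiopoietins act on the endothelial receptor Tek, where Angpt1, made by cells around the vessel, stabilises the wall and Angpt2, made by the endothelium itself, can oppose it. PDGF ligands recruit pericytes, smooth muscle cells and fibroblasts, and FGF ligands bind FGF receptors together with heparan sulphate to act on cell growth, survival and metabolism.

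A single gene of the 30 that could be tested passed the test. Vegfa, the principal angiogenic ligand, was lower in OP hearts, while the other ligands of its family overlapped between the groups. Several paracrine FGF ligands and Angpt1 also lay below the OR range in every OP heart, and Fgfr3 and Fgf12 lay above it, but none of these passed the adjusted threshold with all 6 libraries. Expression is given in counts per 1000000 reads (CPM), which are not corrected for transcript length, so that values are compared between rats and not between genes.

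Each difference is a log2 fold change, OP over OR, with its standard error (SE) and a p from limma that was adjusted by the Benjamini-Hochberg method over the 13445 genes that reached 1 CPM in at least 3 libraries. Genes with an adjusted p under 0.05 are named as called. Of the 43 genes 30 entered the test. Called genes numbered 0 higher and 1 lower among these 30, against 1.47% of all tested genes called higher, 1.9% lower and 3.37% in either direction, and voom on the recovered reads called the same single gene. An unadjusted p under 0.05 was reached by 2 genes higher and 6 lower, against 10.4% and 12.0% of all tested genes. The 3 OP values lay all above the 3 OR values in 2 genes and all below in 8, against 10.4% and 17.7% of all tested genes. The median log2 fold change of the 30 genes was -0.15, with 18 negative and 12 positive values, and that of all tested genes was 0.00.

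**Figure D1:**
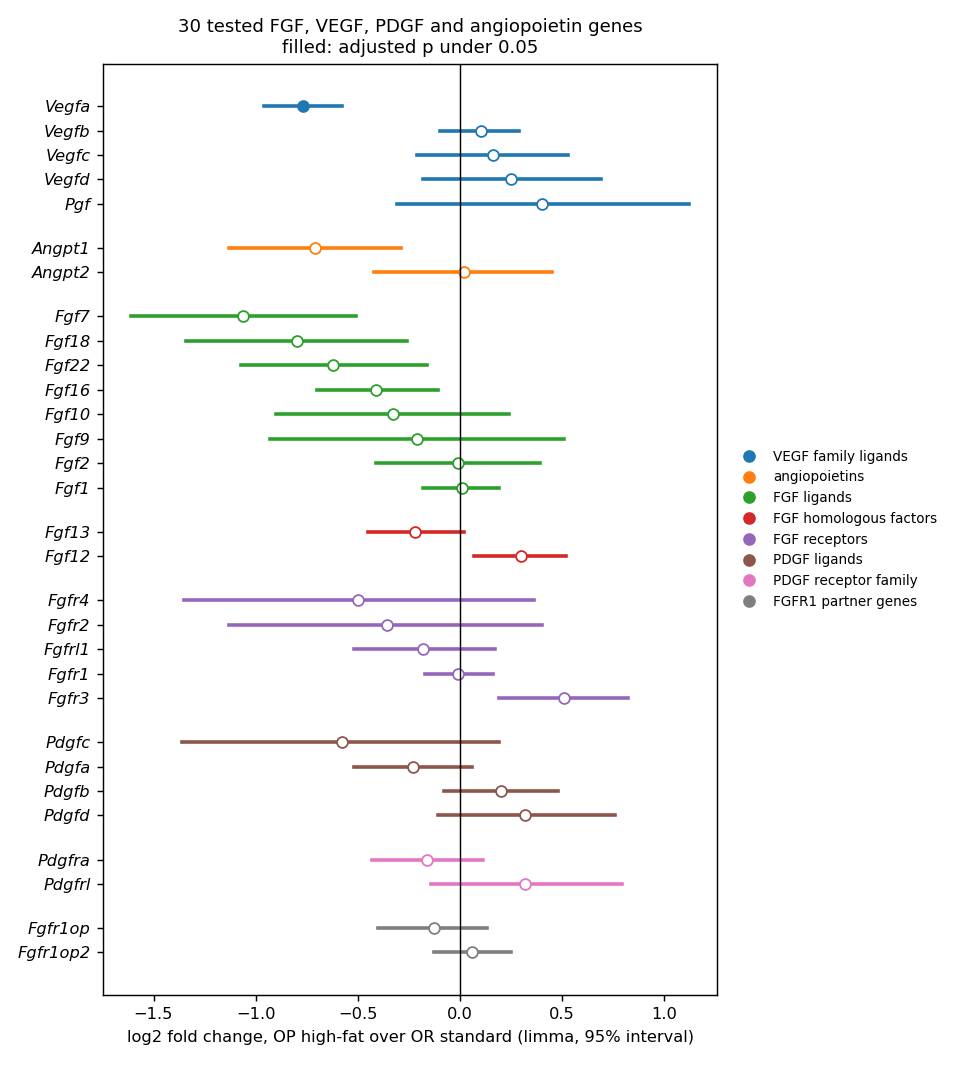
Log2 fold change between OP and OR rats (OP over OR) for the 30 tested genes, ordered by family, with the 95% confidence interval from limma (3 rats per group). Vegfa, with an interval of -0.96 to -0.58, was the single gene called at an adjusted p under 0.05.

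The libraries held 10838184 to 12831577 reads assigned to genes, so that 3 reads, the limit that a count of 0 allows, corresponded to 0.234 to 0.277 CPM. Cardiomyocyte markers were abundant in all 6 libraries, at a summed 33800 to 37800 CPM, as the tissue label implies. OP replicate 2 stood apart: its root mean square log2 difference from the other OP libraries was 0.468 and 0.491, against 0.308 to 0.351 for the other pairs within a group. It held the lowest or the highest value of the 6 libraries in 18 of the 30 tested genes (60.0%, against 56.5% of all tested genes). Values without this library are given for named genes whose call they change.

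The data on Vegfa begin with the sequence around its start. The stretches from 250 bases before to 50 bases after the annotated start of Vegfa and Vegfb are shown because these ligands of the same family differed in their response. They come from RefSeq (GRCr8), at chr9:22452604-22452903 on the plus strand for Vegfa and chr1:213607103-213607402 on the minus strand for Vegfb, and capitals mark the GC box GGGCGG on either strand.
Vegfa: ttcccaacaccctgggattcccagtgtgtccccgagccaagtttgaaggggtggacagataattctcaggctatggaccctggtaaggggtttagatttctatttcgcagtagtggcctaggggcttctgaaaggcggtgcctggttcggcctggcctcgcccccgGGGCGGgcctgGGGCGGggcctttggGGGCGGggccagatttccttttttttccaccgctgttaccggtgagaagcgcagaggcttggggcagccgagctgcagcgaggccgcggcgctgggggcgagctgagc
Vegfb: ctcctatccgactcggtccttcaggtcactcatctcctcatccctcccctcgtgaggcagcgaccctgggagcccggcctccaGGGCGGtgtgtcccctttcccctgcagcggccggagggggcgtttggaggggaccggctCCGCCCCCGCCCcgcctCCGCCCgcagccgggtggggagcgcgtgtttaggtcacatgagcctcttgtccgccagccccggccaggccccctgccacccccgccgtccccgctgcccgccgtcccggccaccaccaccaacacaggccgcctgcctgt
The Vegfa stretch held 3 GC boxes, all on the strand of the gene and beginning at -84, -73 and -58 from the start, in 63.3% GC. The Vegfb stretch held 4, of which 1 lay on the strand of the gene at -167 and 3 on the opposite strand at -108, -102 and -91, in 73.7% GC. Neither held the core of the hypoxia response element, ACGTG, on either strand. A GC box was found in 33.1% of 33469 such windows and ACGTG in 19.3%. For 34 of the 43 genes 37 windows were found, of which 23 held a GC box and 7 held ACGTG. The AAGGTCA element bound by oestrogen-related receptors, present in 4.61% of all windows, occurred in 2 of these 37. They were a second annotated start region of Vegfa and that of Fgf9. The EGR1 element GCGTGGGCG, present in 0.544% of all windows, occurred in none of the 37. Matches of letters of this kind describe the sequence and are not evidence of binding, and no match says only that the letters are not in this window.

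Vegfa stood at 352, 378 and 379.95 CPM in OP replicates 1, 2 and 3 against 691, 600.25 and 666 CPM in OR replicates 1, 2 and 3. The groups were far apart, with every OP heart below the lowest OR heart and a narrow spread within each group. The means were 370.0 ± 15.6 CPM in OP hearts and 653 ± 47.0 CPM in OR hearts (SD, n = 3). The log2 fold change was -0.77 (SE 0.08, 95% confidence interval -0.96 to -0.58, limma adjusted p = 0.0053), a fold of 0.586 with an interval of 0.513 to 0.670. By its unadjusted p of 1.4e-05 it ranked 35 of the 13445 genes tested. These values rested on 4101 to 4875 reads per OP library and 7127 to 7639 per OR library. Vegfa was called under all 15 alternatives of the processing, with log2 fold changes of -0.83 to -0.73 and adjusted p of 0.00149 to 0.0464, among them leaving out each of the 6 libraries. In bulk tissue fewer cells of a type and less RNA per cell cannot be told apart, and this holds for each gene below. The 6 cardiomyocyte markers, of which 0 were called, summed to 33800 to 35900 CPM in the OP group and 34700 to 37800 CPM in OR rats. Tnnt2, Tnni3, Actc1, Myh6, Pln and Ryr2 had log2 fold changes of 0.15, 0.05, 0.02, 0.01, -0.10 and -0.36. Only Pln was lower in every OP heart than in the OR hearts. The part of cardiomyocytes in the value of Vegfa was not tested.

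Vegfb, which binds Flt1 and is linked to fatty acid handling in muscle, stood at 148, 165 and 175 CPM in OP hearts against 165, 149.6 and 157 CPM in OR hearts. The ranges overlapped, with means of 163 ± 13.6 and 157 ± 7.48 CPM. Its log2 fold change was 0.10 (SE 0.09, limma adjusted p = 0.54), and the interval of the fold, 0.933 to 1.23, lay wholly above that of Vegfa. Within each library Vegfa gave 2.38, 2.29 and 2.17 times the reads of Vegfb in OP rats and 4.20, 4.01 and 4.26 times in OR rats, a log2 difference of -0.87 (exact permutation test, two-sided, p = 0.1, the smallest that 3 against 3 rats allow, 3 such ratios computed). This ratio does not depend on the scaling of the libraries.

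The lymphangiogenic ligands Vegfc and Vegfd, which act on Flt4, overlapped between the groups. Vegfc stood at 10 ± 1.10 CPM in OP hearts and 9.35 ± 1.82 CPM in OR hearts (log2 fold change 0.16, SE 0.16, limma adjusted p = 0.591). Vegfd stood at 24.7 ± 4.83 and 21.4 ± 4.62 CPM (0.25, SE 0.19, limma adjusted p = 0.463). Placental growth factor, Pgf, a ligand of Flt1, was measured with 22 to 46 reads per library at 3.27 ± 1.17 and 2.42 ± 0.501 CPM. Its interval of -0.31 to 1.12 on the log2 scale (limma adjusted p = 0.475) left a wide range of differences within reach of these libraries.

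The receptors of these ligands were examined as a list of 8 genes, all of which were tested. None was called with all 6 libraries, in limma or in voom. An unadjusted p under 0.05 was reached by 5 in the higher direction and 0 in the lower, against 10.4% and 12.0% of all tested genes. The median log2 fold change was 0.31. Kdr, the main signalling receptor of Vegfa, stood at 226, 172 and 252 CPM in OP hearts against 174, 174 and 157 CPM in OR hearts. OP replicate 2 fell inside the OR range and the other OP rats above it. The log2 fold change of Kdr was 0.40 (SE 0.12, limma adjusted p = 0.112), and without OP replicate 2 it was 0.53 (adjusted p = 0.00723). Without that library 4 of the 8 receptors were called higher, namely Flt1, Kdr, Tek and the endothelial phosphatase Ptprb. In that fit 373 of all 13309 tested genes were called higher, against 197 of 13445 with all 6 libraries. In every other alternative 0 of the 8 receptors were called higher.

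Flt1, which binds Vegfa, Vegfb and Pgf, stood at 231, 195 and 223 CPM in OP hearts against 203, 179 and 178 CPM in OR hearts (0.26, SE 0.08, limma adjusted p = 0.13, 0.0488 without OP replicate 2). Its values again overlapped through OP replicate 2. Flt4, the receptor of Vegfc and Vegfd, stood at 28.5, 26.7 and 27.4 CPM in OP hearts against 25.1, 20.6 and 19.6 CPM in OR hearts (0.39, SE 0.11, limma adjusted p = 0.0988), with no overlap. Tek and Ptprb, of which the latter restrains Tek, had log2 fold changes of 0.37 and 0.41 (limma adjusted p = 0.134 and 0.116), and 0.49 and 0.55 without OP replicate 2 (adjusted p = 0.0213 and 0.00914). The co-receptors Nrp1 and Nrp2 and the orphan receptor Tie1 overlapped, with log2 fold changes of -0.07, 0.10 and -0.06.

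**Figure D2:**
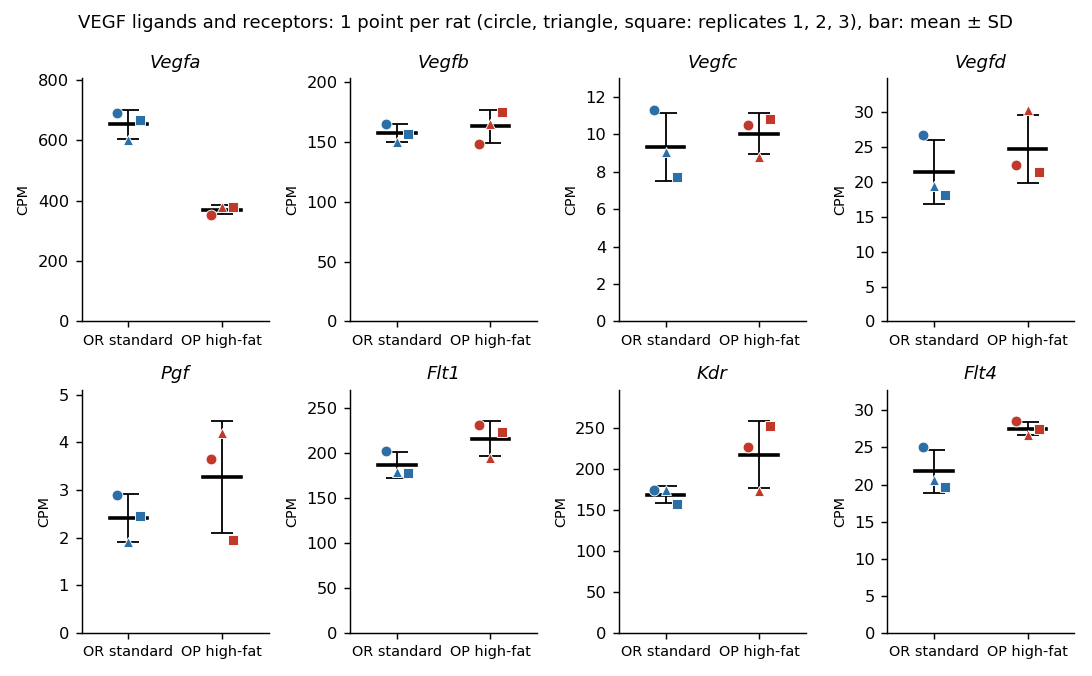
CPM of the 5 VEGF family ligands and of the receptors Flt1, Kdr and Flt4 in each rat (1 point per rat, bar with mean and SD, n = 3). The OP points of Vegfa lay between 352 and 379.95 CPM, all under the lowest OR point of 600.25 CPM, the points of the other 4 ligands overlapped, and OP replicate 2 (triangle) was the lowest OP point of all 3 receptors.

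Markers of vessel cells were summed beside these receptors. The 7 tested endothelial markers had a median log2 fold change of 0.24, with 1 of 7, Eng, called higher and none at 0. They summed to 1370 to 1510 CPM in the OP group and 967 to 1230 CPM in OR rats. Only Eng and Vwf were higher in every OP heart than in the OR hearts. Emcn, Esam, Cdh5, Egfl7 and Cldn5 overlapped, with log2 fold changes of 0.25, 0.24, 0.12, -0.02 and -0.33. Pericyte markers, with 1 of 4 called higher (Kcnj8), summed to 657 to 752 and 619 to 645 CPM. Kcnj8 and Rgs5 were higher in every OP heart (0.75 and 0.44), while Cspg4 and Abcc9 overlapped (0.29 and -0.00). Smooth muscle markers, with 1 of 5 called higher (Myl9), summed to 500.0 to 628 and 384 to 462 CPM. Myl9, Cnn1, Tagln and Acta2 were higher in every OP heart (1.05, 0.58, 0.43 and 0.33), while Myh11 overlapped (0.11). Lymphatic endothelial markers, with 1 of 4 called higher (Ccl21), overlapped at a summed 139 to 170 and 137 to 148 CPM. Ccl21, Pdpn, Lyve1 and Prox1 had log2 fold changes of 0.92, 0.17, -0.05 and -0.52. Of all tested genes 1.47% were called higher. The part of these cell types in the values of the receptors and of Vegfa was not tested.

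Angpt1 stood at 23.6, 16.6 and 26.4 CPM in OP hearts against 30.2, 39.1 and 42.9 CPM in OR hearts. The groups did not overlap, and the lowest value was again in OP replicate 2. The means were 22.2 ± 5.03 and 37.4 ± 6.50 CPM, with a log2 fold change of -0.71 (SE 0.18, unadjusted p = 0.00442, limma adjusted p = 0.0763). It was not called under any of the 15 alternatives, over which the log2 fold change was -0.86 to -0.54 and the adjusted p 0.0741 to 0.261. Pericyte and smooth muscle markers summed higher in OP rats, as given above, though Cspg4, Abcc9 and Myh11 overlapped between the groups. The part of these cells in the value of Angpt1 was not tested. The 5 tested fibroblast markers, of which 0 were called, summed to 1900.0 to 1950.0 CPM in OP replicates 1 and 3, 3810.0 CPM in OP replicate 2 and 2150.0 to 2320.0 CPM in OR rats.

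Angpt2 stood at 16.1, 22.3 and 15.2 CPM in OP hearts against 21.6, 17.8 and 15.2 CPM in OR hearts. The values interleaved, with a log2 fold change of 0.02 (SE 0.19, limma adjusted p = 0.974). The ratio of Angpt1 to Angpt2 reads was 1.46, 0.744 and 1.73 in OP rats and 1.40, 2.20 and 2.82 in OR rats, a log2 difference of -0.73 (exact permutation test, two-sided, p = 0.3). The groups overlapped in this ratio, and OP replicate 2 was the one heart in which Angpt2 gave more reads than Angpt1. Angpt4 had at most 2 reads in a library and was not tested.

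Of the 18 FGF ligands 8 were tested, with 0 called, a median log2 fold change of -0.37 and 7 negative values. An unadjusted p under 0.05 was reached by 4 of them, all lower in OP rats and all without overlap. Of all tested genes 12.0% were lower at this p and 17.7% had every OP value below the OR values. Fgf7, the keratinocyte growth factor made by mesenchymal cells, stood at 1.75, 1.55 and 2.15 CPM in OP hearts against 5.55, 3.90 and 3.15 CPM in OR hearts. Every OP heart lay below the lowest OR heart, on 17 to 27 reads against 36 to 60. The log2 fold change was -1.06 (SE 0.24, unadjusted p = 0.00212, limma adjusted p = 0.0561, 0.0706 by voom), the largest decrease among the 30 genes, and it was not called under any of the 15 alternatives (adjusted p 0.0533 to 0.168). Fgf7 stands among the genes that the study listed from these same libraries, which is therefore no independent evidence.

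Fgf22, of the same subfamily as Fgf7 and Fgf10, stood at 1.65, 1.30 and 1.50 CPM in OP hearts against 2.35, 2.55 and 2.45 CPM in OR hearts. The groups were separate, on 14 to 19 and 25 to 30 reads, with a log2 fold change of -0.62 (SE 0.20, limma adjusted p = 0.125). Fgf10, a mesenchymal ligand that shares a receptor with Fgf7, overlapped at 4.38 ± 1.68 and 5.53 ± 0.480 CPM (-0.33, SE 0.25, limma adjusted p = 0.462).

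Fgf18, a ligand of the Fgf8 subfamily, stood at 1.65, 2.10 and 1.35 CPM in OP hearts against 2.80, 3.75 and 3.00 CPM in OR hearts. No OP heart reached the lowest OR heart, and the log2 fold change was -0.80 (SE 0.23, limma adjusted p = 0.107). Without OP replicate 2 it was -0.97 with an adjusted p of 0.0498, the one alternative of 15 in which Fgf18 was called. Fgf16, of the Fgf9 subfamily and known from mouse heart, stood at 35.1, 24.4 and 31.6 CPM in OP hearts against 43.9, 42.2 and 37.6 CPM in OR hearts. The gap between the groups was small beside the spread among OP rats, with a log2 fold change of -0.41 (SE 0.13, limma adjusted p = 0.123). Its relative Fgf9 overlapped, at 6.63 ± 2.39 and 7.83 ± 2.5 CPM (-0.21, SE 0.31, limma adjusted p = 0.731).

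Fgf1 and Fgf2 lack a classical secretion signal, and both overlapped between the groups. Fgf1, the acidic FGF, stood at 454, 374 and 418 CPM in OP hearts against 439, 438.5 and 399 CPM in OR hearts. The values interleaved, with a log2 fold change of 0.01 (SE 0.08, limma adjusted p = 0.966) and an interval of the fold of 0.884 to 1.14. Fgf2, the basic FGF, stood at 5.18 ± 0.693 and 5.40 ± 0.841 CPM (-0.01, SE 0.17, limma adjusted p = 0.983, fold interval 0.753 to 1.31). In the GRCr8 annotation 17 of the 30 tested genes overlap another gene, among them Fgf2 with Nudt6, Fgf7 with Fam227b and Angpt2 with Mcph1, while Vegfa and Vegfb overlap none. With no strand setting given, reads of such overlapping genes may not be separated.

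**Figure D3:**
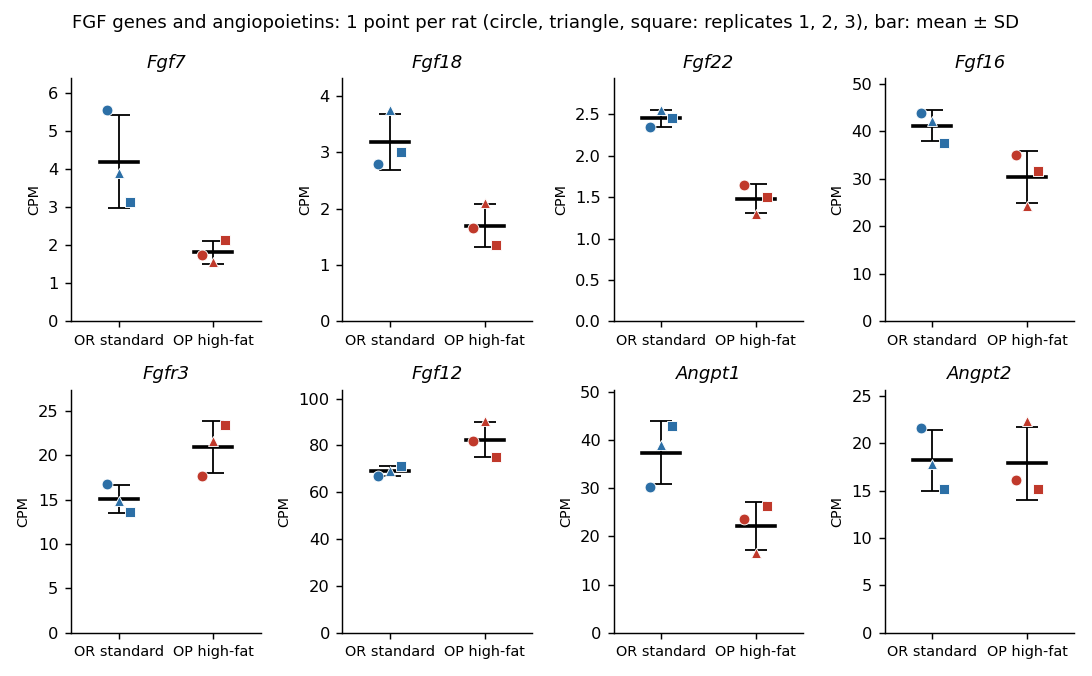
CPM in each rat of the 6 FGF genes with an unadjusted p under 0.05 and of both tested angiopoietins (1 point per rat, bar with mean and SD, n = 3). Fgf7, Fgf18, Fgf22, Fgf16 and Angpt1 lay lower in every OP rat and Fgfr3 and Fgf12 higher, with adjusted p of 0.0561 to 0.135, while Angpt2 overlapped.

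The other 10 FGF ligands were not tested. Fgf3, Fgf4, Fgf8, Fgf17, Fgf19 and Fgf20 had 0 reads in all 6 libraries, which allows up to 0.234 to 0.277 CPM by counting error. Fgf5, Fgf6, Fgf21 and Fgf23 had at most 14 reads in a library and at most 1.30 CPM. That highest value belonged to Fgf23, the bone-derived phosphate hormone, in OP replicate 2, where it had 14 reads against 0 to 4 in each other library. Fgf21, a liver hormone of the fasting response also made by stressed muscle, had 0 to 4 reads in each library, so that no difference was detectable at this depth.

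FGF homologous factors are intracellular proteins that bind voltage-gated sodium channels and do not act as secreted ligands. Fgf12 stood at 81.7, 90.2 and 75.2 CPM in OP hearts against 66.8, 69.2 and 71.1 CPM in OR hearts. All OP hearts lay above the OR hearts, with a log2 fold change of 0.30 (SE 0.10, unadjusted p = 0.0164, limma adjusted p = 0.135). Fgf13 went the other way, at 31.9, 26.7 and 29.4 CPM in OP hearts against 33.2, 34.1 and 38.3 CPM in OR hearts. The groups were separate by a small margin (-0.22, SE 0.10, limma adjusted p = 0.251). Fgf11 and Fgf14 had at most 18 reads in a library and were not tested.

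All 5 FGF receptor genes were tested and 0 were called by limma or voom, with 1 at an unadjusted p under 0.05. Fgfr3 stood at 17.7, 21.6 and 23.4 CPM in OP hearts against 16.8, 14.8 and 13.6 CPM in OR hearts. The OP hearts were the higher in every case, OP replicate 1 by a small margin, and the means were 20.9 ± 2.90 and 15.1 ± 1.56 CPM. Its log2 fold change was 0.51 (SE 0.14, unadjusted p = 0.00558, limma adjusted p = 0.0857), with an adjusted p of 0.0677 to 0.269 over the alternatives, so that Fgfr3 was not called in any of them. Fgfr1, the main FGF receptor of cardiomyocytes, stood at 102, 108 and 105 CPM in OP hearts against 109, 112 and 106 CPM in OR hearts. The ranges overlapped and the interval of the fold, 0.886 to 1.12, was narrow (-0.01, SE 0.07, limma adjusted p = 0.962).

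Fgfr2, whose epithelial splice form is the receptor of Fgf7 and Fgf10, rested on 19 to 57 reads per library. It overlapped at 2.93 ± 1.71 and 3.60 ± 0.265 CPM (-0.36, SE 0.33, limma adjusted p = 0.557). Fgfr4 rested on 6 to 23 reads per library, at 1.30 ± 0.726 and 1.78 ± 0.0764 CPM (-0.50, SE 0.37, limma adjusted p = 0.466). In both genes OP replicate 2 held the lowest value and OP replicate 1 the highest. Fgfrl1, which lacks the kinase domain, stood at 7.77 ± 0.189 and 9.20 ± 1.56 CPM (-0.18, SE 0.15, limma adjusted p = 0.515).

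The 4 PDGF ligands were all tested and all overlapped between the groups, with 0 called by limma or voom and 0 at an unadjusted p under 0.05. Pdgfa stood at 31.6, 25.8 and 34.9 CPM in OP hearts against 32.6, 40.6 and 38.1 CPM in OR hearts (-0.23, SE 0.13, limma adjusted p = 0.322). Pdgfb, made by endothelial cells to recruit pericytes, stood at 43.6, 32.1 and 42.2 CPM in OP hearts against 38.9, 34.4 and 32.05 CPM in OR hearts (0.20, SE 0.12, limma adjusted p = 0.372). In both genes OP replicate 2 was the lowest of the OP rats. The ratio of Pdgfa to Pdgfb reads was 0.724, 0.803 and 0.825 in OP rats and 0.838, 1.18 and 1.19 in OR rats. These ratios did not overlap, with OP replicate 3 and OR replicate 1 close together, and differed by -0.43 on the log2 scale (exact permutation test, two-sided, p = 0.1).

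Pdgfc and Pdgfd, which need proteolytic removal of a CUB domain to become active, had log2 fold changes of -0.58 (SE 0.34, limma adjusted p = 0.346) and 0.32 (SE 0.19, adjusted p = 0.352). Pdgfc stood at 3.77 ± 1.58 and 5.90 ± 2.10 CPM, and Pdgfd at 8.70 ± 2.40 and 6.97 ± 0.375 CPM. Pdgfra, the receptor of Pdgfa and Pdgfc and a marker of cardiac fibroblasts, stood at 130.5, 109.95 and 95.8 CPM in OP hearts against 122, 130.4 and 133 CPM in OR hearts. OP replicate 1 lay inside the OR range and the other OP rats below it (-0.16, SE 0.12, limma adjusted p = 0.45). Pdgfrl, a secreted protein similar to the receptor, stood at 8.22 ± 1.65 and 6.73 ± 1.32 CPM (0.32, SE 0.20, limma adjusted p = 0.386).

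The genes named after an FGFR1 fusion encode neither ligands nor receptors, and neither was called. Fgfr1op, a centrosomal protein gene, stood at 10.2, 10.6 and 10.6 CPM in OP hearts against 11.6, 12.9 and 11.2 CPM in OR hearts. The groups were separate before rescaling of the libraries, with a log2 fold change of -0.13 (SE 0.12, limma adjusted p = 0.529). Fgfr1op2 stood at 76.9 ± 7.70 and 76.0 ± 1.23 CPM (0.06, SE 0.08, limma adjusted p = 0.713).

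**Figure D4:**
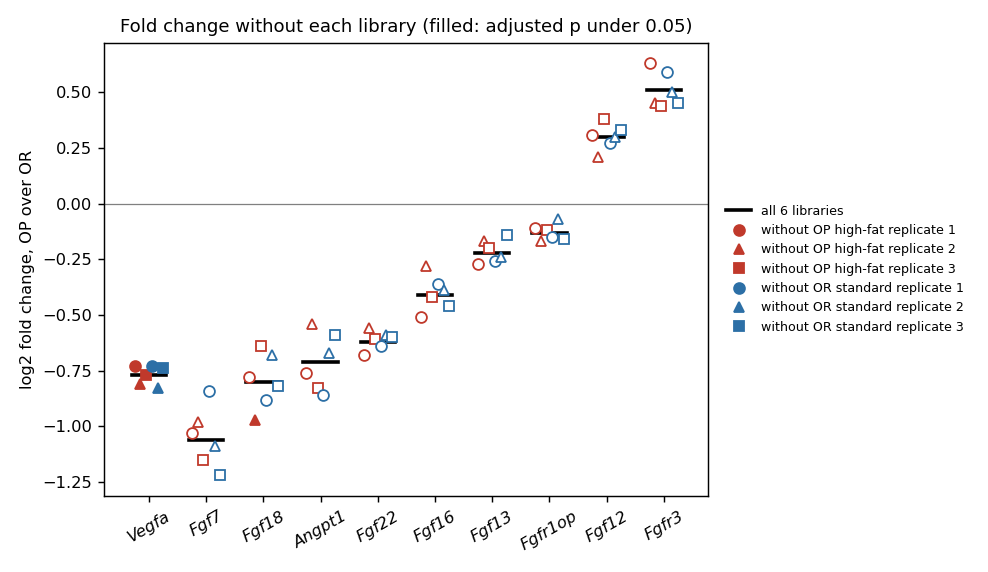
Log2 fold change between OP and OR rats (OP over OR) with all 6 libraries and with each library left out in turn, for the 10 genes whose groups did not overlap. The sign was kept in every case, and a filled point marks an adjusted p under 0.05, reached by Vegfa in all of them and by Fgf18 without OP replicate 2.

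The remaining pathway was examined as 7 lists of 99 genes, the receptors above included, of which 95 were in the table and 88 were tested. Of these 1 was called higher and 3 lower, with a median log2 fold change of -0.03. The 4 called genes were 4.55% of the 88, near the 3.37% of all tested genes. Without OP replicate 2, 14 list genes were called, in a fit that called 775 of all 13309 tested genes. With any other library left out 0 or 1 list genes were called. Egr1, an immediate early transcription factor induced by ERK signalling, was the only one of 14 tested feedback and response genes that was called. It stood at 75.8, 72.0 and 86.6 CPM in OP hearts against 258, 174 and 145 CPM in OR hearts. All OP hearts were lower and the OR hearts varied widely, with a log2 fold change of -1.21 (SE 0.18, limma adjusted p = 0.0161). Without OP replicate 1 the adjusted p was 0.0556 and without OR replicate 2 it was 0.0701, at log2 fold changes of -1.19 and -1.26. The feedback and response list had a median of -0.16, and Fos and Spry4, an immediate early gene and a feedback inhibitor, had log2 fold changes of -0.62 and -0.38 (limma adjusted p = 0.307 and 0.252). Fos was called with the replicate number as a block (adjusted p = 0.0375).

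The list of hypoxia signalling genes, which also took in the coactivator Ppargc1a, had 15 tested genes and a median log2 fold change of -0.02. Only Ppargc1a was called, and no hypoxia-inducible factor and no other gene of the list was called with all 6 libraries. Ppargc1a, a coactivator of mitochondrial genes that in mouse muscle also acts on Vegfa, stood at 39.4, 34.5 and 43.2 CPM in OP hearts against 51.9, 59.1 and 66.3 CPM in OR hearts. Every OP heart was below the OR hearts, with a log2 fold change of -0.55 (SE 0.12, limma adjusted p = 0.0464). It was called in 1 of the 6 fits with a library left out, that without OP replicate 2 (adjusted p = 0.0467), and had adjusted p of up to 0.185 in the others. The call was also lost by voom (0.0509), with no filter (0.0533) and with the replicate block (0.0524). Epas1, a hypoxia-inducible factor, and the oxygen sensor Egln1 had log2 fold changes of 0.42 and 0.29 (limma adjusted p = 0.0562 and 0.07), with every OP value above the OR values. Without OP replicate 2 Epas1 was called (0.50, adjusted p = 0.00914). Hif1a had a log2 fold change of -0.16 (adjusted p = 0.32).

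Of 11 tested FGF co-receptors and binding proteins 1 was called, and the median log2 fold change was 0.15. Sdc1, a heparan sulphate proteoglycan that presents FGF ligands, stood at 8.25, 14.1 and 9.20 CPM in OP hearts against 5.10, 5.35 and 4.20 CPM in OR hearts. The OP hearts were all higher, OP replicate 2 most of all, with a log2 fold change of 1.09 (SE 0.22, limma adjusted p = 0.0436). Without OP replicate 2 it was 0.84 (adjusted p = 0.0282), and with each of the other libraries left out it was not called (adjusted p 0.0577 to 0.179), nor by voom (0.0589) or with no filter (0.0533). Gpc4 and Sdc3, of the same class, had log2 fold changes of -0.52 and 0.23 (limma adjusted p = 0.0936 and 0.142). Sdc1 and Vash2 also stand among the genes that the study listed from these libraries.

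Of 14 tested endothelial sprouting genes 1 was called, and the median was -0.09. Vash2, a vasohibin that promotes vessel growth, stood at 15.6, 10.6 and 11.2 CPM in OP hearts against 23.9, 36.2 and 20.7 CPM in OR hearts. The groups did not overlap, with a log2 fold change of -1.04 (SE 0.22, limma adjusted p = 0.0466), and with any library left out the adjusted p was 0.051 to 0.129. It was 0.0548 by voom, 0.0528 with no filter and 0.0666 with the replicate block. The Notch target Hes1 and the guidance receptor Unc5b had log2 fold changes of -0.58 and 0.29 (limma adjusted p = 0.125 and 0.116), and both were called without OP replicate 2 (-0.80 and 0.37, adjusted p = 0.00993 and 0.0263). None of the 20 adaptor and Ras-MAPK genes was called by limma with all 6 libraries, and their median was 0.03. Of these 20 genes 4 higher and 5 lower had an unadjusted p under 0.05, against 10.4% and 12.0% of all tested genes. The smallest p values of that list belonged to Map2k2, Plcg1 and Mapk3, with log2 fold changes of 0.27, -0.28 and 0.31 (limma adjusted p = 0.0659, 0.0683 and 0.0687). Without OP replicate 2 Map2k2 and Mapk3 were called (0.27 and 0.32, adjusted p = 0.0469 and 0.043). None of the 6 tested proteases that process PDGF and VEGF was called by limma, 0 had an unadjusted p under 0.05, and the median was -0.09. Adamts3, Plau and Furin, with the smallest p of these, had log2 fold changes of -1.22, -0.41 and 0.09 (limma adjusted p = 0.239, 0.335 and 0.442). Adamts3 had 1 read in OP replicate 1, and its value was -0.53 without that library, -0.65 with a pseudocount of 20 and -1.60 by voom.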

How the data were processed

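Myocardial total RNA of 3 OP and 3 OR rats was sequenced by the authors with 1 TruSeq mRNA library per rat. The submitters' processing notes name Trimmomatic, STAR, HTSeq and Rnor_6.0, and a strand setting was not found in them. Each deposited value is a score, namely reads per gene that the authors brought to a total of 20000000 in every library and then rounded up, and hence no raw count. CPM is this value divided by 20. Reads per library were recovered as the total for which most values are whole reads scaled and rounded up (99.75% to 99.88% exact).

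After division by TMM factors (trimming 30% of ratios and 5% of levels) and addition of 4 (0.2 CPM, which draws fold changes of weak genes toward 0), limma 3.58.1 in R 4.3.3 was run on log2 values, with group as the term and a mean-variance trend. The test took genes that reached 1 CPM in 3 libraries or more, with Benjamini-Hochberg adjustment over all of them. The steps were tested on simulated data. Tables and figures were made in Python 3.11.15 (pandas 2.3.3, NumPy 2.4.6, matplotlib 3.10.9).

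Members, lists, motifs and markers were chosen with earlier results of these data and the gene table of the paper known. A gene that the rule leaves out is not reported here. Values in every library are given for genes that were called, had an unadjusted p under 0.05 or did not overlap, and for the gene with the highest CPM of each family, and of each list for called genes. Up to 3 genes of each list with the smallest p are also named. Values in every library of Vegfb, Angpt2, Pdgfa, Pdgfb and the receptors, and the names Flt1, Tek, Nrp1, Nrp2, Tie1 and Hif1a, were chosen after values were seen. Alternatives were median of ratios scaling, no rescaling, no filter, a minimum of 10 reads per library, voom on the recovered reads, pseudocounts of 1 and 20, robust moderation, the replicate number as a block, and each library left out. Promoter windows and gene overlaps come from RefSeq GRCr8, which is not the build of the files.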

Additional observations from a re-analysis of the deposited data

How the results depend on the processing

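Vegfa was the single member called in 14 of 15 alternatives, and without OP replicate 2 Fgf18 was called as well (log2 fold change -0.97, adjusted p = 0.0498), so that 1 to 2 members were called with a library left out. The median log2 fold change of the members was -0.15, and -0.19 to -0.03 over the alternatives. The 4 called genes of the lists became 1 by voom and 1 with no filter, and 0 to 14 with a library left out. Over all genes 453 were called, and 56 to 775 with a library left out (775 without OP replicate 2, 56 without OR replicate 1). With no rescaling 33.1% of 465 called genes were higher, against 43.5%. With the replicate number as a block 281 genes were called, with Vegfa the single member and 3 list genes (Fos, Egr1 and Sdc1). Correlations of same-numbered rats were 0.059, 0.075 and 0.127, and those of differently numbered rats were -0.17 to 0.079. These values do not settle whether the numbers are pairs, and the main fit did not take them as pairs. The cause of these shifts was not tested. Depth limits statements on Fgf7, Fgf18, Fgf22, Fgfr2, Fgfr4 and Pgf, with at most 60 reads per library. With 3 rats per group only differences large beside the spread were called.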
